A study of Mus musculus with 4 samples.

Results

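Mouse chromosome 14 carries a cluster of serine protease genes that encode mast cell chymases, mast cell proteases, cathepsin G and granzymes. The genes described here are Cma1, Cma2, Mcpt8, Ctsg, Gzmb, Gzmc, Gzmd, Gzme, Gzmf and Gzmg, which were chosen by symbol and read on every probe. They make up 10 of the 30872 symbols on the array and 14 of its 45281 probes. Cma2 and Mcpt8 had drawn attention to the cluster because they were among the genes with the widest difference of ΔCdk Rb-HA from WT Rb-HA MEFs, so their values in that contrast are given as a description.

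Whole-genome expression was measured in mouse embryonic fibroblasts (MEFs) of strain FVB;129, with 1 array per condition and 4 arrays in all. Parental MEFs carry a floxed Rb gene and received a solution without TAT-Cre, a recombinase that enters cells as a protein, followed by media alone. Rb-deleted MEFs received TAT-Cre and then media alone. WT Rb-HA MEFs received TAT-Cre and a retrovirus for tagged wild-type Rb, and ΔCdk Rb-HA MEFs received TAT-Cre and a retrovirus for tagged Rb whose Cdk phosphorylation sites were mutated. Each TAT-Cre or retrovirus step, or its mock, was applied 2 times for 1 h with 3 h between. The study's methods add that cells of all 4 conditions were released from contact inhibition and treated with doxorubicin, a DNA-damaging topoisomerase inhibitor, so no array is of untreated cells. No array had an empty retrovirus. A difference between either Rb-HA array and the Rb-deleted array therefore cannot be told apart from one due to infection, whereas both Rb-HA arrays are of infected cells.

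Proteases of this cluster are made as inactive precursors and are stored in the secretory granules of blood cells. Chymases (Cma1, Cma2 and several Mcpt genes) are known from mast cells, Mcpt8 is a basophil protease, cathepsin G (Ctsg) belongs to neutrophils, and granzymes are released by cytotoxic T and natural killer (NK) cells. Fibroblasts are not a known main source of any of them. Rb itself binds E2F transcription factors and holds their target genes down until it is hyper-phosphorylated by Cdk complexes. The study reports that Rb with a single phosphate stays active. It also reports that ΔCdk Rb-HA, which stays un-phosphorylated, failed to repress such genes in MEFs treated with doxorubicin.

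The array reads each gene through probes of 50 bases, and related proteases could share signal where a probe matches more than 1 of their transcripts. Probe sequences are shown for the genes on which the results turn, named by their start on the transcript and written in the transcript's direction. Capitals mark the longest run of bases shared with a probe of another of the 10 genes.
Cma2 probe 498: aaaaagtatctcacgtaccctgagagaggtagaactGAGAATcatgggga
Mcpt8 probe 702: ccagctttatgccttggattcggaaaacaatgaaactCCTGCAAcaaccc
Gzme probe 475: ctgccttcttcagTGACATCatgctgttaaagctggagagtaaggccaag
Gzme probe 562: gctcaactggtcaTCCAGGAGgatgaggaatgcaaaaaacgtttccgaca
Gzmd probe 188: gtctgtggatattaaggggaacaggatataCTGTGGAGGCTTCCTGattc
Gzmd probe 668: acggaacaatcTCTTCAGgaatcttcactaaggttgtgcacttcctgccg
The longest of those runs was the 16 bases that the Gzmd probe at position 188 shared with the Gzmf probe. Probes were compared only with other probes, which read other stretches of their transcripts, so whether a Gzmd or Gzme probe also matches the transcript of the other gene was not tested. The Cma2 probe at position 768, which stands for that gene in the counts below, is not printed because the files do not say whether it lies in an untranslated region. Genome positions of probes are not printed because the array's table mixes builds.

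The start regions of the same genes show how alike their regulatory sequence is. RefSeq promoters of assembly GRCm38.p6, 250 bases before to 50 bases after the gene start, were matched for 9 of the 10 genes, Cma2 being the gene without an entry. Those of Mcpt8 (chr14:56085148-56085447), Gzme (chr14:56120576-56120875) and Gzmd (chr14:56132544-56132843) all lie on the minus strand and are printed 5′ to 3′ on that strand. Capitals mark TTTAAAA, a run picked after these promoters had been seen.
Mcpt8 promoter: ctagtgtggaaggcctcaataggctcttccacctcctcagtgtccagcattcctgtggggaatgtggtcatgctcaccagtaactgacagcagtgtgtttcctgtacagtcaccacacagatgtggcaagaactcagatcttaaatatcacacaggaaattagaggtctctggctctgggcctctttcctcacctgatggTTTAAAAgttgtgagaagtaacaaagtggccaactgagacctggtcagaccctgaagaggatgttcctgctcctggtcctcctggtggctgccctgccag
Gzme promoter: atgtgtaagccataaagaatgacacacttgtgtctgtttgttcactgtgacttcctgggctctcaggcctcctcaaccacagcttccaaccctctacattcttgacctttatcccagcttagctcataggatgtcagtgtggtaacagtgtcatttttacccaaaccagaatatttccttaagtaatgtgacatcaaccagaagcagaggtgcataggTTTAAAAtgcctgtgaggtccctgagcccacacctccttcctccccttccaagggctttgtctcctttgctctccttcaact
Gzmd promoter: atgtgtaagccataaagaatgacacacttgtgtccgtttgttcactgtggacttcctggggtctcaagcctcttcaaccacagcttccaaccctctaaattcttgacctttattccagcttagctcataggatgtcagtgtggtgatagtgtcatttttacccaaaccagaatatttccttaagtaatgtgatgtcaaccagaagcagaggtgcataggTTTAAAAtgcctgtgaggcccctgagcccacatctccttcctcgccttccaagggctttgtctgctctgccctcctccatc
After alignment, Gzme and Gzmd matched at 93.7% of the 300 bases of their promoters, while either matched Mcpt8 at 43% to 47.7%. TTTAAAA starts 50 bases before the gene start in Mcpt8, 32 in Gzme and 31 in Gzmd. It was also found, on the same strand, in Gzmg and Gzmf, which makes 5 of the 9 promoters, and on either strand in 8.74% of 32851 promoters of the same length. Searches of both strands for an E2F core (TTTNNCGC, in 5.17% of promoters) and a GATA motif (GATAAG, in 7.44%) matched none of the 9. The letters of a TATA box (TATAAA, in 13.6%) were matched in Ctsg alone, on the reverse strand at -237 from the gene start. An AP-1 motif (TGANTCA, in 7.81%) was matched in Gzmb alone. A STAT motif (TTCNNNGAA, in 8.3%) was matched in Ctsg and Gzmb. TGANTCA and TTCNNNGAA read the same on both strands, so a match counts once. CG dinucleotides numbered 0 in the Mcpt8 and Gzme windows and 2 in that of Gzmd, beside a median of 7 over all promoters.

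Values below are the authors' summarized probe intensities, on a linear scale, each an average over a median of 44 beads. The arrays were alike, with mean intensities of 336 to 346 and 15950 to 16740 probes detected at p below 0.01. Ratios are differences of background-corrected, quantile-normalized log2 values. The bead standard error (bead SE) given with them covers error within an array and not between cultures, so no difference here has a replicate check. A gene was analysed if a probe was detected on at least 1 array, and it was counted as past the filter if its ratio exceeded 1.6-fold, 0.68 on the log2 scale. This left 12616 genes. As a check of the labels, Rb1 at transcript position 4421 was lower than in parental MEFs on all 3 TAT-Cre arrays, with log2 ratios of -1.88 (bead SE 0.08) for Rb-deleted cells, -1.69 (0.06) for those with WT Rb-HA and -1.75 (0.06) for those with ΔCdk Rb-HA. That probe lies far along the transcript, and whether the deleted part or the retroviral Rb includes it is not stated in the sources used here. The probe thus reads the transcript's level and not the deletion itself. On immunoblots the study reports Rb-HA protein at physiologic levels in these MEFs, so the low Rb1 values are not read as a measure of re-expression. All 10 fibroblast markers, among them Col1a1, Col1a2 and Vim, were detected on all 4 arrays, and of them Col3a1 fell past 1.6-fold in Rb-deleted (-0.73) and in ΔCdk Rb-HA (-0.98) relative to parental MEFs, while Pdgfrb fell in ΔCdk Rb-HA relative to Rb-deleted (-0.95) and to WT Rb-HA MEFs (-0.70).

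Of the 10 protease genes 5 were detected on at least 1 array, through 8 of their 14 probes. Parental cells had 3 detected genes and Rb-deleted cells had 2, while cells with WT Rb-HA had 4 and cells with ΔCdk Rb-HA had 5. Cma2 and Mcpt8 were detected on all 4. Ctsg, Gzmb, Gzmc, Gzmf and Gzmg, with 1 probe each, stayed between 32.1 and 44.2 with detection p-values of 0.172 to 0.967 and have no measured level here. In bulk RNA, fewer cells that express a gene and less RNA per cell cannot be told apart.

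**Figure D1:**
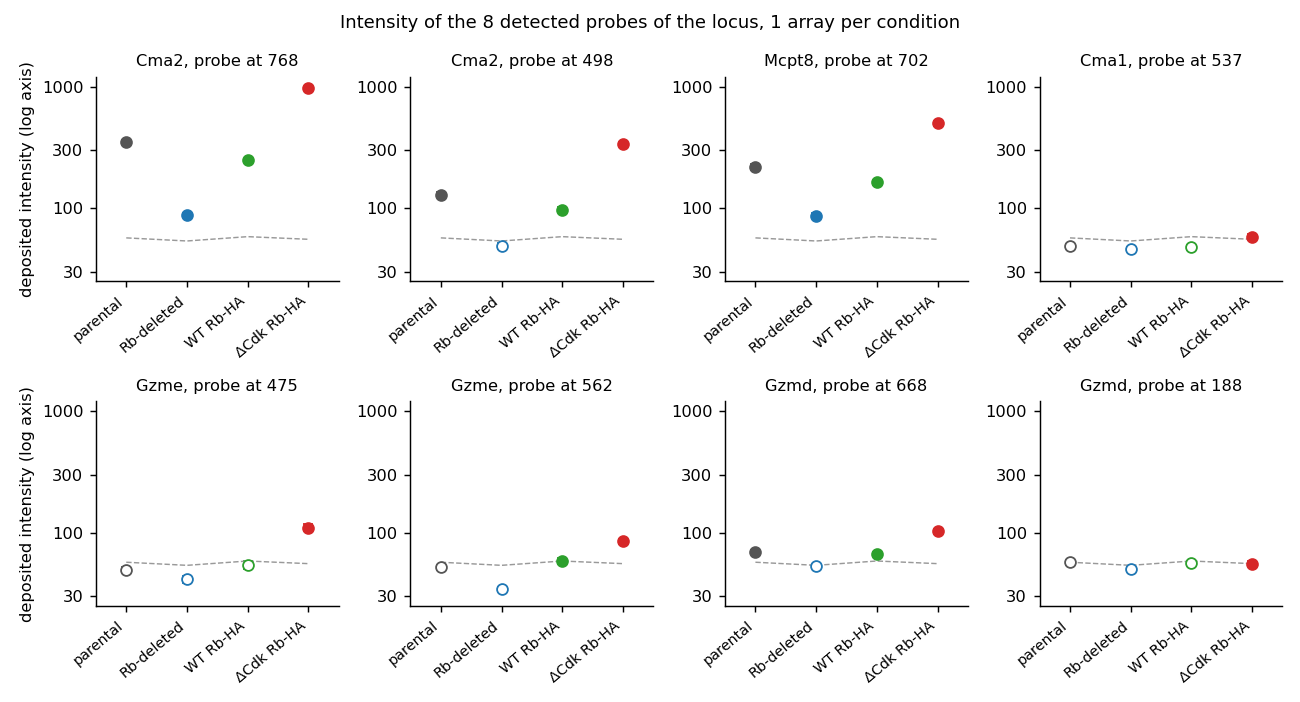
Deposited intensity (log axis) of each of the 8 detected probes on the 4 arrays, with bars of 1 bead standard error, most of them smaller than the symbols; filled points were detected at p below 0.01, open points were not, and the dashed line is the lowest intensity among detected probes of each array. Cma2 and Mcpt8 are lowest in Rb-deleted and highest in ΔCdk Rb-HA MEFs, whereas Gzme rises clear of the dashed line only on the ΔCdk Rb-HA array.

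Cma2, a chymase gene near Cma1, had the widest span of the cluster. Its probe at position 768 read 353 (bead SE 12.2) in parental, 88.4 (3.91) in Rb-deleted, 248 (8.51) in WT Rb-HA and 969.9 (21.4) in ΔCdk Rb-HA MEFs. Its probe at 498 read 129, 48.8, 97.6 and 338 on the same arrays, and the Rb-deleted value was not above background. Both probes thus placed ΔCdk Rb-HA highest and Rb-deleted lowest, with WT Rb-HA a little under parental. At position 768 and relative to parental cells, the log2 ratio of Rb-deleted cells was -2.28 (bead SE 0.10), that of WT Rb-HA cells -0.50 (0.08) and that of ΔCdk Rb-HA cells 1.61 (0.07). For a ratio with 1 undetected side the lowest bound over the 5 ways of correcting and normalizing is given here and below. Such bounds leave out bead error. At position 498, Rb-deleted MEFs were at least 2.14-fold lower than parental MEFs, and the other 2 ratios were -0.52 (0.11) and 1.63 (0.09). The 2 probes therefore gave the same sizes within their bead errors wherever both were detected.

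Set against Rb-deleted MEFs, WT Rb-HA MEFs had a Cma2 signal higher by 1.77 (bead SE 0.10) on the log2 scale at position 768. ΔCdk Rb-HA gave a signal higher by 3.89 (0.09), a 14.8-fold difference. The probe at 498 gave at least 1.65-fold and at least 5.52-fold for the same ratios. ΔCdk Rb-HA exceeded WT Rb-HA by 2.12 (0.07), or 4.33-fold, at position 768 and by 2.16 (0.11) at position 498. This was the contrast behind the choice of the gene, in which Cma2 ranked 1 of 12616 genes from the highest ratio.

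Mcpt8, the basophil protease gene, followed the same order over the 4 arrays. Its single probe, at position 702, read 219 (bead SE 14.04) in parental, 87.1 (4.19) in Rb-deleted, 164 (7.06) in WT Rb-HA and 501 (20.9) in ΔCdk Rb-HA MEFs. All 4 values were above background, so every ratio of Mcpt8 was measured on both sides. Relative to parental cells, Rb-deleted cells gave a log2 ratio of -1.57 (0.14), WT Rb-HA cells one of -0.46 (0.13) and ΔCdk Rb-HA cells one of 1.37 (0.12). Relative to Rb-deleted MEFs it was 1.11 (0.12) in WT Rb-HA and 2.93 (0.11), or 7.64-fold, in ΔCdk Rb-HA MEFs. ΔCdk Rb-HA exceeded WT Rb-HA by 1.83 (0.10), rank 2 of all genes in the contrast that chose it.

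Granzymes d and e belong to a group of granzyme genes that arose by duplication in rodents, and both were close to background outside the ΔCdk Rb-HA array. Gzme at position 475 read 49.4 in parental, 41.4 in Rb-deleted, 54.4 in WT Rb-HA and 109.9 in ΔCdk Rb-HA MEFs, and only the last was detected. At position 562 it read 51.7, 34.4, 58.5 and 84.9, and the last pair of values was detected. Both probes were thus highest in ΔCdk Rb-HA MEFs. At position 475 Gzme there was at least 1.80-fold higher than in parental MEFs, at least 1.87-fold higher than in Rb-deleted MEFs and at least 1.79-fold higher than in WT Rb-HA MEFs. At position 562 the bounds were lower, at least 1.42-fold over parental and at least 1.47-fold over Rb-deleted MEFs, and the measured ratio to WT Rb-HA was 0.87 (bead SE 0.17) on the log2 scale. The size of these differences rested on the background correction: with the undetected values at their normalized levels, the log2 ratio of ΔCdk Rb-HA to Rb-deleted MEFs at 475 was 2.05 with the offset of 16, 1.13 with an offset of 50 and 1.38 without correction.

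Gzmd gave a different answer at each of its 2 probes. The probe at position 668 read 68.8 in parental, 53.3 in Rb-deleted, 67.2 in WT Rb-HA and 103 in ΔCdk Rb-HA MEFs, with only the Rb-deleted value below detection. Its log2 ratio to parental was -0.09 (bead SE 0.12) in WT Rb-HA and 0.83 (0.12) in ΔCdk Rb-HA MEFs, and Rb-deleted MEFs were at least 1.22-fold lower. The probe at position 188, which shares 16 bases with the Gzmf probe, read 56.8, 50.2, 56.1 and 55.6 and was detected in ΔCdk Rb-HA MEFs alone, at 0.00962 against the detection threshold of 0.01. Signal at position 188 was thus level and at the edge of background, while that at 668 was highest in ΔCdk Rb-HA MEFs. Gzmd is counted below through the brighter probe at 668. Its ratio of ΔCdk Rb-HA to parental no longer passed the filter with an offset of 50 in the background correction (0.53) or with the mean of both probes (0.39).

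Cma1, the chymase gene at the start of the cluster, was detected only in ΔCdk Rb-HA MEFs and only at position 537. The values there were 49.0 in parental, 46.6 in Rb-deleted, 47.8 in WT Rb-HA and 58.2 in ΔCdk Rb-HA MEFs. The detected value had a bead SE of 3.23. Its bound against parental MEFs, 1.02-fold higher, leaves out that error and is not told apart from no difference. The gene did not pass the filter in any ratio. The probe at position 640 read 44.1, 41.1, 46.2 and 40.7, with no value above background.

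Counted over the cluster, the ΔCdk Rb-HA array stood apart from parental in the opposite direction to the Rb-deleted array. Of the 10 genes, 2 (Cma2 and Mcpt8) fell past 1.6-fold in Rb-deleted relative to parental MEFs and 0 rose, beside 2.98% of all analysed genes that fell and 2.14% that rose. Counted from the lowest ratio, Cma2 ranked 12 and Mcpt8 ranked 48 of 12616. In WT Rb-HA relative to parental MEFs 0 of the 10 passed either way, where 0.888% of genes rose and 2.46% fell. In ΔCdk Rb-HA relative to parental MEFs 4 (Cma2, Mcpt8, Gzmd and Gzme) rose and 0 fell, beside 2.58% of genes that rose and 3.3% that fell. Cma2 and Mcpt8 were chosen in part through their high values on the ΔCdk Rb-HA array. Their rises and ranks here and over Rb-deleted MEFs below reuse those values, so the shares of all genes are no independent check. Gzme is counted through its probe at 475, which was detected only on the ΔCdk Rb-HA array, where it is high. The gene's place in this count and in those of ΔCdk Rb-HA MEFs below was thus fixed in part by the filter. Its other probe, at 562, was also detected in WT Rb-HA MEFs. With detection required on all 4 arrays the counts of 4 here and below became 2, Cma2 and Mcpt8. These 3 ratios share the parental array, so a value of that array off its true level moves all 3 together. The 5 genes not detected on any array could pass in no comparison.

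Among the 3 arrays of TAT-Cre-treated cells, every member past the filter was higher with Rb-HA than without it, and of both Rb-HA arrays the ΔCdk one was the higher. In WT Rb-HA relative to Rb-deleted MEFs 2 of the 10 (Cma2 and Mcpt8) rose and 0 fell, beside 0.539% of genes that rose and 0.484% that fell. Cma2 ranked 5 and Mcpt8 ranked 19 of 12616 from the highest ratio. In ΔCdk Rb-HA relative to Rb-deleted MEFs 4 rose and 0 fell, beside 2.31% of genes that rose and 1.95% that fell, with Cma2 ranked 5 and Mcpt8 ranked 6. In ΔCdk Rb-HA relative to WT Rb-HA MEFs, the contrast used in the choice, 4 rose and 0 fell, beside 0.84% of genes that rose and 1.01% that fell. Gzmd lay at 0.92 (bead SE 0.12) in that contrast and fell under the filter at 0.58 with an offset of 50.

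Levels of Cma2 at both probes, of Mcpt8 and of Gzmd at 668 were in 1 order, ΔCdk Rb-HA above parental, parental above WT Rb-HA and WT Rb-HA above Rb-deleted. The place of ΔCdk Rb-HA over WT Rb-HA follows in part from how the cluster was chosen. Parental and WT Rb-HA, neighbours in this order, were 6.24 bead SEs apart for Cma2 at 768 and 4.55 at 498, 3.56 for Mcpt8 and 0.771 for Gzmd. The gap of Gzmd was thus within its bead error, and none of these gaps has a between-culture error. Among all 12616 genes 565 (4.48%) had this order, and 39 of the 430 genes that spanned more than 1 on the log2 scale between their lowest and highest array had it. Gzme had WT Rb-HA above parental at both probes, by 0.832 and 1.44 bead SEs, with undetected values on 1 or both of these arrays.

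The rest of the cluster was read in the order of RefSeq GRCm38.p6. That order is Cma1, Mcpt-ps1, Cma2, Gm5801, Mcpt1, Mcpt2, Mcpt9, Mcpt4, Mcpt8, Ctsg, Gzme, Gzmd, Gzmg, Gzmn, Gzmf, Gzmc and Gzmb. Mcpt1, Mcpt2, Mcpt9 and Mcpt4 between Cma2 and Mcpt8, and Gzmn further on, were not detected at p below 0.01 on any array, so their ratios are not measured here. Mcpt1, a mucosal mast cell chymase, came closest, with 44.6 in parental, 33.9 in Rb-deleted, 40.9 in WT Rb-HA and 54.6 in ΔCdk Rb-HA MEFs and a detection p-value of 0.0160 on the last array. Mcpt9 read 46.9, 44.2, 48.7 and 52.2, and Gzmn read 43.4, 46.0, 46.2 and 50.5, with detection p-values of 0.0288 and 0.0491 on the ΔCdk Rb-HA array. All 3 were thus highest on that array and would count as detected there at p below 0.05, whereas Mcpt2 and Mcpt4 would not. Gm5801, which lies next to Cma2 and is listed in the array's table as EG545056, was detected on all arrays at 538 in parental, 495 in Rb-deleted, 528 in WT Rb-HA and 536 in ΔCdk Rb-HA MEFs. Its log2 ratios all stayed within the 1.6-fold filter, where those of its neighbour Cma2 did not. Ctsg lies between Mcpt8 and Gzme and stayed at 34.6, 37.1, 37.5 and 38.2. Gzmg and Gzmc have promoters 85.3% and 84.3% identical to that of Gzmd printed above, and neither was detected.

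Outside the cluster, 24 genes were taken, 12 on each side, of which 16 were analysed. In ΔCdk Rb-HA relative to parental MEFs 0 of the 16 rose and 2 fell past 1.6-fold, beside 2.58% of all genes that rose and 3.3% that fell. The 16 ratios ran from -1.25 to 0.44, with a median of -0.04. The 2 were Gjb2, a gap junction gene at the far edge (-1.25, bead SE 0.05), and Parp4 (-1.03, 0.12). In ΔCdk Rb-HA relative to WT Rb-HA MEFs 0 passed either way, with ratios from -0.49 to 0.42, beside 0.84% of all genes that rose and 1.01% that fell. The ratios of Cma2, of Mcpt8 and of Gzmd at 668 lay in both comparisons above the range of these neighbours. So did the lower bounds of Gzme at 475. Gzmd at 188, undetected on the parental and WT Rb-HA arrays, lay within that range (-0.05 and 0.03). With the mean of both probes Gzmd lay within it relative to parental (0.39) and above it relative to WT Rb-HA (0.48). Cma2 and Mcpt8 had been chosen through the comparison with WT Rb-HA, and both comparisons use the ΔCdk Rb-HA values behind that choice. Gzme at 475 was detected on the ΔCdk Rb-HA array alone. The place of Cma2, Mcpt8 and Gzme above the neighbours was thus fixed in part by choice or filter. A wider list of genes near the cluster had a median of -0.14 in ΔCdk Rb-HA relative to parental MEFs, beside -0.01 over all genes. In that ratio 0 of its 21 analysed genes rose and 4 fell, beside 2.58% and 3.3% of all genes. The 4 were Irf9, Gjb2, Parp4 and Rnf31, a ubiquitin ligase gene (-0.83, bead SE 0.14). Adcy4, an adenylyl cyclase gene, fell only relative to Rb-deleted MEFs (-0.73, 0.08). Irf9, an interferon response factor, had the lowest ratio and went from 516 in parental to 260.3 in Rb-deleted, 247 in WT Rb-HA and 135 in ΔCdk Rb-HA MEFs.

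Markers of the blood cells that normally make these proteases were read on the same arrays. Of 18 mast cell and basophil markers 17 were on the array and 6 were analysed (Kit, Tpsab1, Hdc, Il1rl1, Gata2 and Mitf). None rose past 1.6-fold in any ratio. In these ratios 0.539% to 2.58% of all genes rose, so no rise among 6 is near that share. Of the defining markers, Cpa3 (carboxypeptidase A3), Tpsb2 (a mast cell tryptase), Fcer1a and Ms4a2 (chains of the IgE receptor) were not detected on any array. Fcer1a read 57.2 in WT Rb-HA and 51.8 in parental MEFs, with detection p-values of 0.0128 and 0.0310. It would count as detected on both of these arrays at p below 0.05. Tpsab1, another mast cell tryptase, was detected on all 4, at 61.4 in parental, 57.0 in Rb-deleted, 64.6 in WT Rb-HA and 66.4 in ΔCdk Rb-HA MEFs. Kit, the stem cell factor receptor, read 45.4, 56.1, 50.4 and 57.1 and was detected in Rb-deleted and ΔCdk Rb-HA MEFs. Kit was thus highest on the arrays where Cma2 was lowest and highest, and Tpsab1 had the same lowest and highest array as Cma2 with gaps of at most 0.33 (bead SE 0.17) on the log2 scale. Their part in the protease signal was not tested. Hdc, which makes histamine, read 95.7 in parental, 55.9 in Rb-deleted, 55.2 in WT Rb-HA and 52.9 in ΔCdk Rb-HA MEFs, and the last 2 were not detected. Hdc was thus highest in parental MEFs, where Cma2 and Mcpt8 were not. The summed intensity over the list ran from 17850 to 22010, carried by Il1rl1 at 16426 in ΔCdk Rb-HA to 20492 in parental MEFs.

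Cytotoxic cell markers were read for the granzymes. Of 17 T and NK cell markers on the array 3 were analysed (Gzmm, Prf1 and Cd3e), and 0 passed 1.6-fold in any ratio. In these ratios 0.539% to 2.58% of all genes rose and 0.484% to 3.3% fell, so 0 of 3 is near those shares. Ncr1, Klrd1 and Cd8a, which define NK and cytotoxic T cells, were not detected on any array. Cd3e, a T cell marker, was detected on all 4, at 59.4 in parental, 58.3 in Rb-deleted, 66.2 in WT Rb-HA and 61.2 in ΔCdk Rb-HA MEFs. Gzmm was likewise detected on all 4, at 71.8, 70.2, 67.2 and 74.0. Their part in the granzyme signal was not tested. Perforin (Prf1), which lets granzymes into target cells, read 309 in parental, 298 in Rb-deleted, 330 in WT Rb-HA and 273 in ΔCdk Rb-HA MEFs. Its log2 ratio in ΔCdk Rb-HA MEFs was -0.12 (bead SE 0.07) to parental and -0.11 (0.08) to Rb-deleted MEFs, both within 2 bead SEs, and -0.28 (0.07) to WT Rb-HA MEFs. The summed intensity over the list ran from 1188 to 1274.

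One neutrophil marker moved with the proteases. S100a8, a calcium-binding protein abundant in neutrophils, was the only 1 of 10 neutrophil granule markers analysed and read 150.05 in parental, 128 in Rb-deleted, 165 in WT Rb-HA and 311 in ΔCdk Rb-HA MEFs. Its log2 ratio in ΔCdk Rb-HA MEFs was 1.25 (bead SE 0.08) to parental and 1.07 (0.08) to WT Rb-HA. Elane, Mpo, Ltf and Ngp, which define neutrophil granules, were not detected on any array, and neither were Lcn2 and S100a9. Elane and Lcn2 were highest in ΔCdk Rb-HA MEFs, at 51.0 and 53.9, with detection p-values of 0.0385 and 0.0182. Both would count as detected there at p below 0.05. S100a9 read 35.4 in parental, 34.0 in Rb-deleted, 37.7 in WT Rb-HA and 37.5 in ΔCdk Rb-HA MEFs. The summed intensity over the list was 665 to 708 on the other arrays and 842 in ΔCdk Rb-HA MEFs. Whether S100a8 and the proteases share a source was not tested.

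Macrophage and leukocyte markers moved with TAT-Cre treatment. Of 10 such markers 7 were analysed. Relative to parental MEFs 6 fell past 1.6-fold in Rb-deleted MEFs (median -0.94, beside 0.02 over all genes), 7 in WT Rb-HA MEFs (-1.13, beside 0.01) and 7 in ΔCdk Rb-HA MEFs (-1.05, beside -0.01). Of all genes 2.98%, 2.46% and 3.3% fell in the same ratios. Adgre1 (F4/80), a defining macrophage marker, read 773 in parental, 247 in Rb-deleted, 203 in WT Rb-HA and 198 in ΔCdk Rb-HA MEFs. Ptprc (CD45), Itgam and Fcer1g were not detected on any array. The 7 analysed markers set parental MEFs apart from all 3 others. Of the 7, 0 passed 1.6-fold between any 2 of the TAT-Cre arrays, where Cma2 and Mcpt8 differed. Between those arrays 0.484% to 2.31% of all genes passed in either direction, so 0 of 7 is near that share. Summed over the list, intensity was 5420 in parental and 2181 to 2471 in the 3 others. Their part in the fall of Cma2 and Mcpt8 from parental to Rb-deleted MEFs was not tested.

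**Figure D2:**
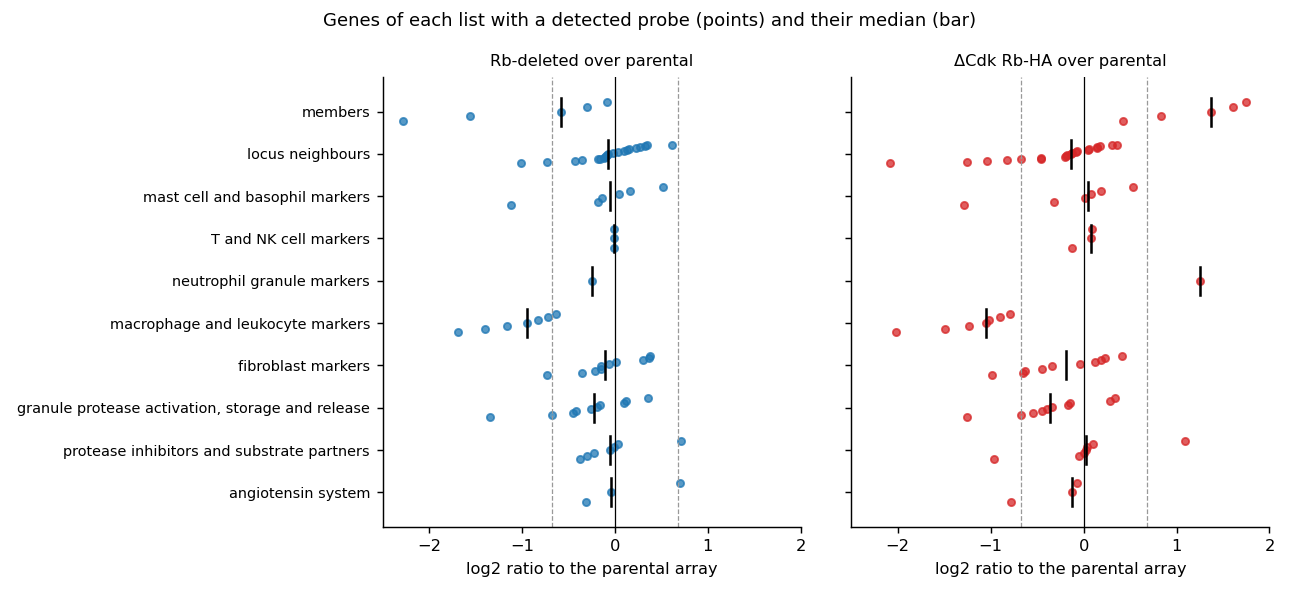
Log2 ratio to the parental array of each analysed gene (points) of the protease members and of 9 other lists, with the median of each list (bar), for Rb-deleted (left) and ΔCdk Rb-HA MEFs (right); dashed lines mark 1.6-fold, and ratios with an undetected side are drawn at their normalized values. Cell type lists other than the single neutrophil gene show no gene past 1.6-fold upward in ΔCdk Rb-HA MEFs, and all 7 macrophage and leukocyte genes lie below 0 in both.

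Genes that activate, store or release granule proteases were read as well. Of 12 such genes 10 were analysed and 0 rose past 1.6-fold in any ratio. In these ratios 0.539% to 2.58% of all genes rose, so 0 of 10 is near that share. Their median ratio to parental was -0.22 for Rb-deleted cells, -0.28 for cells with WT Rb-HA and -0.37 for cells with ΔCdk Rb-HA. Cathepsin C (Ctsc), which trims granule proteases into their active form, read 73.0 in parental, 53.6 in Rb-deleted (not detected), 60.2 in WT Rb-HA and 59.7 in ΔCdk Rb-HA MEFs. Serglycin (Srgn), the proteoglycan that holds chymases in the granule, read 108, 56.0, 51.6 (not detected) and 58.8, and its log2 ratio to parental was -1.35 (bead SE 0.14) in Rb-deleted and -1.26 (0.15) in ΔCdk Rb-HA MEFs. Serglycin thus fell relative to parental on every TAT-Cre array, and its log2 ratio of ΔCdk Rb-HA to Rb-deleted MEFs was 0.09 (0.17).

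Inhibitors and substrates of the proteases were read last. Of 11 inhibitors and partners on the array 7 were analysed. Slpi, a secreted inhibitor of neutrophil and mast cell proteases, rose past 1.6-fold relative to parental on all 3 TAT-Cre arrays, with intensities of 141 in parental, 213 in Rb-deleted, 227 in WT Rb-HA and 263 in ΔCdk Rb-HA MEFs. Serpina3g, an inhibitor of the serpin family, had a log2 ratio of -0.97 (bead SE 0.06) in ΔCdk Rb-HA relative to parental MEFs, and Serpina3n and Timp1 stayed within 0.14 of 0 on the log2 scale in all ratios. Chymase is known for making angiotensin II from its precursor. Of 10 genes of the angiotensin system 3 were analysed (Ace, Mme and Atp6ap2), while angiotensinogen (Agt) and the receptors Agtr1a, Agtr1b and Agtr2 were not detected. Ace, which makes angiotensin II by the classical route, was detected in Rb-deleted MEFs alone, at 60.5. Mme, which encodes neprilysin, an enzyme that cleaves angiotensins, read 124 in parental, 119 in Rb-deleted, 103 in WT Rb-HA and 81.2 in ΔCdk Rb-HA MEFs, and fell past 1.6-fold in ΔCdk Rb-HA relative to parental MEFs (-0.78).

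Genes whose levels over the 4 arrays most resembled those of Cma2 and Mcpt8 were found by the root mean square difference of mean-centred log2 values. The gene nearest to Cma2 was Mcpt8, at 0.35, followed by Ivl (0.50), LOC100048554 (0.54), Hist1h4k (0.64) and Ppbp (0.68). Nearest to Mcpt8 were Ivl (0.15), LOC100048554 (0.25), Ppbp (0.33), Cma2 (0.35) and Hist1h4k (0.39). The same 4 other genes thus appeared for both proteases, and since Cma2 and Mcpt8 are close to each other these are not independent sets. Cma2 and Mcpt8 were both chosen for a wide difference of ΔCdk Rb-HA from WT Rb-HA MEFs. That difference is part of the values compared, so their closeness follows in part from the choice. Likeness over 4 arrays compares 4 values and carries no test.

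**Figure D3:**
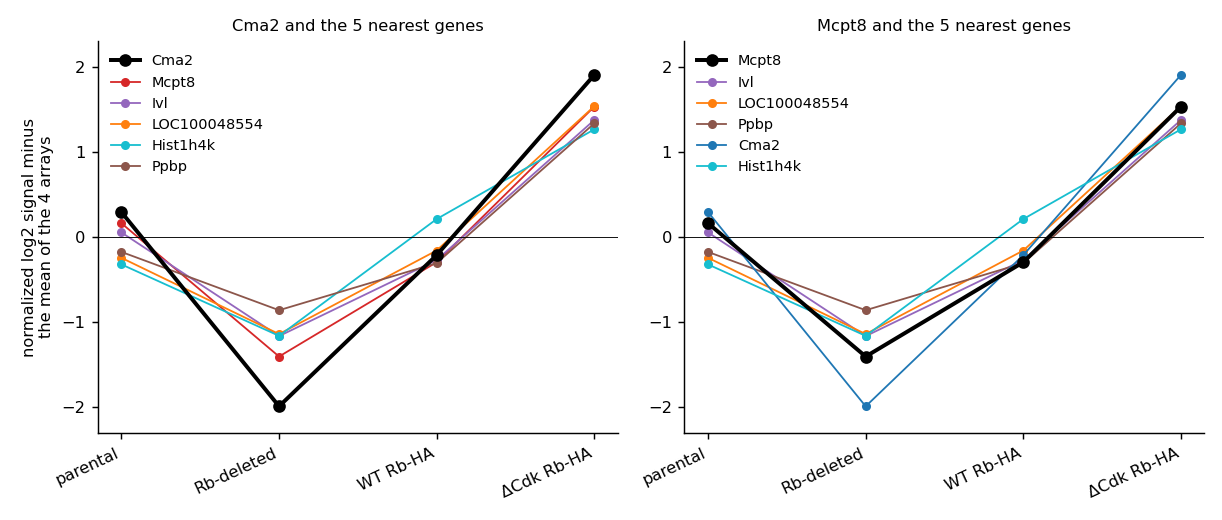
Normalized log2 signal on each array minus the mean of the 4 arrays, for Cma2 (left, black) and Mcpt8 (right, black) and the 5 genes nearest to each in root mean square difference. All lines dip in Rb-deleted and peak in ΔCdk Rb-HA MEFs, with Cma2 spanning the widest range.

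Ivl encodes involucrin, a structural protein of the skin barrier, on chromosome 3. It read 457 in parental, 205.6 in Rb-deleted, 358 in WT Rb-HA and 1043 in ΔCdk Rb-HA MEFs. Ppbp, a chemokine precursor of platelets on chromosome 5, read 102, 71.1, 95.5 and 238. LOC100048554, annotated in the array's table as similar to monocyte chemoattractant protein-2, read 449.7, 245, 461 and 1406. Hist1h4k, a histone H4 gene on chromosome 13, read 167, 102, 226 and 431.5. Every one of these genes was detected on all 4 arrays, and those with a listed chromosome lie outside chromosome 14.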

How the data were processed

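Expression was measured on 4 Illumina MouseWG-6 v2.0 arrays, 1 per condition, grouped by their labels. The authors deposited, for each probe and array, a summarized intensity without normalization, a detection p-value, a bead count and a standard error over beads.

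Background was corrected with limma 3.58.1 in R 4.3.3 (normexp, background inferred from detection p-values, offset 16), followed by quantile normalization and log2. Genes needed a detection p below 0.01 on at least 1 array, and the brightest such probe stood for its gene. Where 1 side of a ratio was not detected, a lower bound was taken, with the undetected side set to the lowest detected value of its array or to its own value if that was higher. The lowest such bound over the 5 ways of correcting and normalizing (offsets of 16 and 50, no correction, median scaling, no normalization) is printed. Bead error does not enter these bounds. Neither p-values nor tests between conditions were computed. Other steps used Python 3.11.15, numpy 2.4.6, pandas 2.3.3 and Biopython 1.88 (promoter alignment). The steps were tested on simulated data.

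The 10 genes, the gene lists and the naming rule were chosen with earlier results of these data known. All members, Rb1, list genes past 1.6-fold (at most 6 a list) and the 5 genes most like Cma2 and Mcpt8 were named, and further genes were named as background for a list. Gene order and older symbols came from RefSeq (GRCm38.p6, protein-coding genes and transcribed pseudogenes). Alternatives changed the offset, the background correction, the normalization, the detection filter, the probe rule and the fold filter.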

Additional observations from a re-analysis of the deposited data

How the results depend on the processing

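No member reversed its called direction under any alternative. Counts of members past the filter, which were 4 in each comparison of ΔCdk Rb-HA MEFs, became 2 in each when detection on all 4 arrays was required, as did the 5 members detected, because fewer genes were then analysed. With a 1.4-fold filter the count in WT Rb-HA relative to parental MEFs became 1 in place of 0. An offset of 50 lowered the log2 ratio of ΔCdk Rb-HA to WT Rb-HA to 1.96 for Cma2 and 1.61 for Mcpt8, from 2.12 and 1.83. The other 63 recomputed counts and ratios of this kind did not move by more than 2 bead SEs or 1.5 times. Of further ratios for single members, 27 moved by more than 2 bead SEs and 151 did not, with the widest moves for Gzme. With an offset of 50 its log2 ratio in ΔCdk Rb-HA MEFs went from 1.74 to 1.01 relative to parental, from 2.05 to 1.13 relative to Rb-deleted and from 1.57 to 0.93 relative to WT Rb-HA MEFs, and without background correction these were 1.14, 1.38 and 1.04, all still past the filter. Gzmd relative to Rb-deleted MEFs went from 1.41 to 0.83 with an offset of 50 and to 0.82 with the mean over probes, and it fell under the filter relative to parental and to WT Rb-HA with an offset of 50, without background correction and with the mean over probes. No paired analysis was possible because each condition has 1 array, and no replicate could be left out for the same reason. The number of arrays limits precision, and for Cma1, Gzmd and Gzme so does a signal near background.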

Other observations

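A pair of genes just beyond the 5 nearest to Cma2 were chosen after their values had been seen. Ccl11 (eotaxin, a chemokine that attracts eosinophils) ranked 6 and read 314 in parental, 246 in Rb-deleted, 386 in WT Rb-HA and 1221 in ΔCdk Rb-HA MEFs. Hist1h4h, another histone H4 gene, ranked 7 and read 414, 260.3, 620.5 and 1138. Both were lowest in Rb-deleted and highest in ΔCdk Rb-HA MEFs, like the proteases, but with WT Rb-HA above parental.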
